A study of Mus musculus with 6 samples.

Results

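The genes described here build the machinery that copies DNA and supply the nucleotides for it. They are 31 named genes, chosen by symbol, of 19938 genes measured on the arrays with a probe set of exactly 1 gene symbol, and each gene was read from its brightest probe set by the mean of all 6 arrays. By role, 12 belong to origin licensing and the replicative helicase, 9 to polymerases, the sliding clamp and the fork, 6 to nucleotide supply and 4 to chromatin assembly. They were compared between Lxn-/- and WT mice in long-term hematopoietic stem cells (LT-HSCs); the Lxn-/- animals lack exons 2 to 4 of the latexin gene. All mice were female C57BL/6 animals aged 8 to 12 weeks, and the study asked which genes change in LT-HSCs when latexin is absent. LT-HSCs were sorted from bone marrow as lineage-negative, Sca1-positive, c-Kit-positive cells without CD34 and without "Flt2", as the labels spell it. There were 3 biological samples per genotype, each a pool of about 100000 cells from 10 to 20 mice measured on 1 Affymetrix mouse Gene ST array. No Cre driver and no treatment is named for either genotype. Values are log2 signals normalized by the authors with robust multi-array average (RMA), and a difference is Lxn-/- minus WT on that log2 scale.

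Before a cell copies its DNA, origins are licensed: CDC6 and CDT1 load the ring of MCM2 to MCM7 onto DNA, and CDC45 and the GINS proteins then turn that ring into an active helicase. The polymerases follow on the opened strands, held by the PCNA clamp, while ribonucleotide reductase, thymidylate synthase and thymidine kinase provide deoxynucleotides and CAF-1 places new histones. Much of this set is switched on by E2F transcription factors as cells enter S phase. LT-HSCs are known as mostly quiescent cells, so in a pool the level of such transcripts can come from a minority of cycling cells. In bulk RNA, fewer cycling cells and less RNA per cycling cell cannot be told apart.

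The labels were checked on the same arrays. Lxn itself had a mean of 9.21 (SD 0.30, n = 3) in WT LT-HSCs and of 8.74 (SD 0.073, n = 3) in Lxn-/- LT-HSCs, without overlap. Its difference of -0.47 (SE 0.14) did not pass the test (adjusted p = 0.993 in limma). The sources used here do not place its probes relative to the deleted exons. As a level of background, the 95th percentile was taken over 1210 probe sets of odorant receptors and pheromone receptors. Lxn exceeded it on all 6 arrays, those of Lxn-/- pools included. All 14 measured LT-HSC markers exceeded it on at least 1 array, among them Kit (12.85 in WT), Meis1 (12.28), Hlf (12.15) and Mllt3 (11.13). Transcripts of gate-negative markers were also above that level on all 6 arrays, if the "Flt2" of the labels is read as Flt3. Cd34 was at 13.12 in WT and 13.18 in Lxn-/-, and Flt3 at 11.93 and 11.99. All 31 replication genes exceeded it on all 6 arrays. WT replicate 3 stood apart, with a score of 23.3 on the first principal component where the other 5 pools lay between -12.6 and 7.97.

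None of the 31 replication genes passed the test for a difference between Lxn-/- and WT LT-HSCs. Of all genes, 0 (0%) had an adjusted p under 0.05 in limma. At an unadjusted p under 0.05 there were 749 of 19938 genes, or 3.76%, with 2.47% of all genes also lower in Lxn-/-, and 0 of the 31. The unadjusted p-values of the 31 ran from 0.137 to 0.994, and their adjusted p-values in limma from 0.993 to 0.999. The values of the 2 genotypes overlapped for each of the 31, where 5.49% of all genes were without overlap and lower in Lxn-/- and 3.3% without overlap and higher. For each of the 31 the range within at least 1 genotype was wider than the difference between genotypes, and the 95% confidence interval included 0. The widest bound of those intervals was a 1.51-fold lower level, that of Rrm2, so that a decrease of that size in Rrm2 lies inside its interval.

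The signs of these small differences were unequal. The difference was below 0 for 23 of the 31 genes, with a median of -0.056, whereas it was below 0 for 56% of all genes, with a median of -0.013. When every array was shifted to a common median, 28 of the 31 were below 0 and the median of all genes was -0.058. Without Lxn-/- replicate 3, 16 of the 31 were below 0 and their median was -0.00023, where the median of all genes was -0.016. Without WT replicate 3 the count was 21 and the median -0.02, and without WT replicate 1 the count was 25 and the median -0.11.

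**Figure D1:**
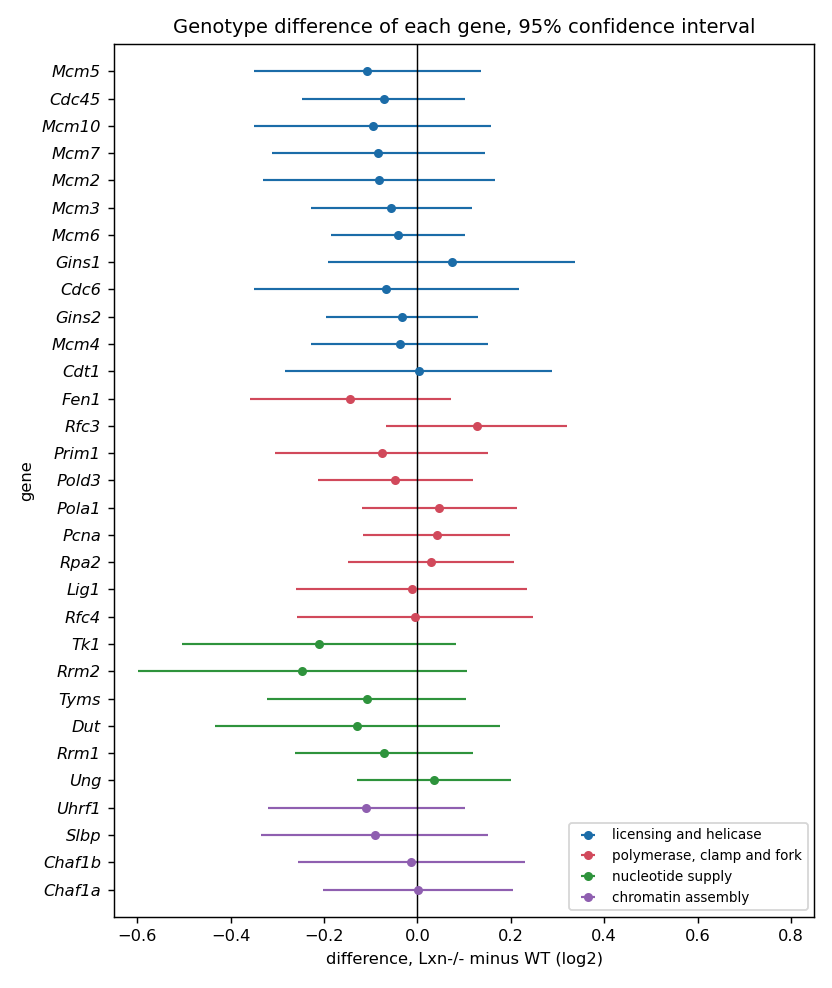
Difference in log2 signal, Lxn-/- minus WT, of each of the 31 genes (points) with its 95% confidence interval in limma (lines, 3 arrays per genotype), coloured by role. Every interval includes 0; Rrm2 at -0.25 and Tk1 at -0.21 lie farthest below it and Rfc3 at 0.13 farthest above it.

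Much of this set is described above as switched on by E2F factors, so the choice of genes is not independent of E2F words. Sequence words were searched in the promoters of these genes. They were read from a RefSeq table (GRCm38.p6) of windows from 250 bases before to 50 bases after each start, in which 28 of the 31 genes have an entry and Mcm4, Gins1 and Gins2 do not. The 4 words TTTCCCGC, TTTCGCGC, TTTGCCGC and TTTGGCGC, which are forms of the E2F consensus, were searched on both strands. At least 1 stood in a window of 11 of the 28 genes, against 2.6% of all 27025 genes in the table and 3.29% of its protein-coding genes. By role these were 6 of 9 licensing genes, 4 of 9 polymerase and fork genes, 0 of 6 nucleotide supply genes and 1 of 4 chromatin assembly genes. The CCAAT box, searched as CCAAT on both strands, stood in 17 of 28, against 41.1% of all genes. The cell cycle homology region TTTGAA, a word of mitotic promoters, stood in 3 of 28, against 20.2% of all genes and 17 of 24 mitosis genes. The 170 bases before the start are given 5′ to 3′ on the gene's strand for the 3 subunit genes of the MCM ring with an E2F word before the start, for the clamp loader gene Rfc3, and for Rrm2 and Tk1, which had the widest differences and none of the 4 words. Capitals mark E2F words and CCAAT boxes on either strand. Those of Mcm5 and Mcm6 hold overlapping E2F words.
Mcm5: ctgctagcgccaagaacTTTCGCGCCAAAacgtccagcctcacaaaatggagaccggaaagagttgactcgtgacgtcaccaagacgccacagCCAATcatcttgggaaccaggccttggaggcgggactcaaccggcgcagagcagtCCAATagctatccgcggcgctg
Mcm6: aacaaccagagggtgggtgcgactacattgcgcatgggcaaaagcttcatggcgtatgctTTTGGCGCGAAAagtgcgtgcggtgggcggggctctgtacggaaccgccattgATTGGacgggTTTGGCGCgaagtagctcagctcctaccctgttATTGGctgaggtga
Mcm7: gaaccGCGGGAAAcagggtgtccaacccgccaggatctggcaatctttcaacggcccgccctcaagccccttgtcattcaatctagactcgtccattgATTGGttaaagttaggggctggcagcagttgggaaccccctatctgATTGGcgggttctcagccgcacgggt
Rfc3: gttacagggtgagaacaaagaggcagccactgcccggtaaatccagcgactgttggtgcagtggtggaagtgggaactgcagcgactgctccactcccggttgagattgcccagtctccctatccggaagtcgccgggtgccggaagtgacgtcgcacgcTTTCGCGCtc
Rrm2: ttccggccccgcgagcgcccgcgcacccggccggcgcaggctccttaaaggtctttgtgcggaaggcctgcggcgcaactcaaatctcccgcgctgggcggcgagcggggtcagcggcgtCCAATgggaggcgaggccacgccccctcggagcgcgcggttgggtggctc
Tk1: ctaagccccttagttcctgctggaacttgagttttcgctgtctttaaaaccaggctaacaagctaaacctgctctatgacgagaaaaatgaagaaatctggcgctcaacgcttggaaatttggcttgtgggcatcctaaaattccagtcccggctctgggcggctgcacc
These lie at chr8:75109339-75109508 on the plus strand (Mcm5), chr1:128359706-128359875 on the minus strand (Mcm6), chr5:138171884-138172053 on the minus strand (Mcm7, the more upstream of its starts) and chr5:151651209-151651378 on the minus strand (Rfc3). Rrm2 lies at chr12:24708084-24708253 on the plus strand and Tk1 at chr11:117826015-117826184 on the minus strand. The 11 genes with an E2F word had a median difference of -0.047, with 8 of 11 below 0, and the 17 without had a median of -0.077, with 13 of 17 below 0. A word in a window is a match of letters and does not show binding.

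Among the licensing and helicase genes, the 6 subunits of the MCM ring all had differences below 0, and none passed the test. Under each other scaling tried all 6 stayed below 0, and Mcm4 was above 0 without WT replicate 3 or Lxn-/- replicate 3. The 12 genes had a median difference of -0.061, with 10 below 0, and a range from -0.11 for Mcm5 to 0.073 for Gins1. Mcm5, a subunit of the ring, had 11.83, 12.10 and 12.21 in WT, against 11.91, 12.04 and 11.87 in Lxn-/-. WT replicate 1 was thus the lowest of the 6 pools and WT replicate 3 the highest, and the Lxn-/- values lay between them. The difference was -0.11 (SE 0.11, 95% confidence interval -0.35 to 0.14), with an exact two-sided permutation p of 0.5. The smallest p that 3 arrays against 3 allow in that test is 0.1.

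Mcm2 and Mcm7, partners of Mcm5 in the ring, had the same order of pools within Lxn-/- and the same lowest pool in WT. Mcm2 had 11.77, 12.10 and 12.10 in WT and 11.87, 12.04 and 11.82 in Lxn-/-, a difference of -0.082 (SE 0.11). Mcm7 had 11.96, 12.27 and 12.26 in WT and 12.05, 12.17 and 12.02 in Lxn-/-, a difference of -0.083 (SE 0.098). Without WT replicate 1 the differences of Mcm2, Mcm5 and Mcm7 were -0.19, -0.21 and -0.18, and without WT replicate 3 they were -0.027, -0.024 and -0.035. Mcm3, Mcm4 and Mcm6 differed by -0.056, -0.038 and -0.042. Of these, Mcm6 was nearly level over the pools, with 11.60, 11.60 and 11.59 in WT and 11.57, 11.59 and 11.50 in Lxn-/-. The mean of the 6 ring subunits was 11.68 (SD 0.12, n = 3) in WT, against 11.61 (SD 0.067, n = 3) in Lxn-/-.

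For Cdt1 and Cdc6, the genes of the loading factors, the WT values lay inside the range of the Lxn-/- values. Cdt1, which brings the ring to the origin, had 10.76, 11.10 and 10.96 in WT and 11.01, 11.10 and 10.71 in Lxn-/-, and its means were 10.94 in both genotypes. Cdt1 had the smallest difference of the group, 0.0025 (SE 0.12, 95% confidence interval -0.28 to 0.29). Cdc6, the ATPase that works with CDT1, ranged from 9.26 to 9.52 in WT and from 9.10 to 9.55 in Lxn-/-, so that both its highest and its lowest value came from Lxn-/- pools, and it differed by -0.066 (SE 0.12).

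The factors that activate the helicase had differences of either sign. Cdc45, a subunit of the active helicase, had 9.65, 9.76 and 9.86 in WT and 9.72, 9.70 and 9.63 in Lxn-/-. Its difference was -0.072 (SE 0.076, 95% confidence interval -0.25 to 0.10; exact permutation p = 0.4). Mcm10, which helps to start unwinding, had 9.63, 9.79 and 9.93 in WT and 9.74, 9.83 and 9.50 in Lxn-/-. It differed by -0.095 (SE 0.11; exact permutation p = 0.6), and by -0.00023 without Lxn-/- replicate 3, its lowest pool. Of the GINS subunits, Gins2 differed by -0.033 (SE 0.07) and Gins1 by 0.073 (SE 0.11). Gins1 ranged from 8.52 to 8.68 in WT and from 8.44 to 8.87 in Lxn-/-, and its difference was -0.017 without Lxn-/- replicate 2.

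**Figure D2:**
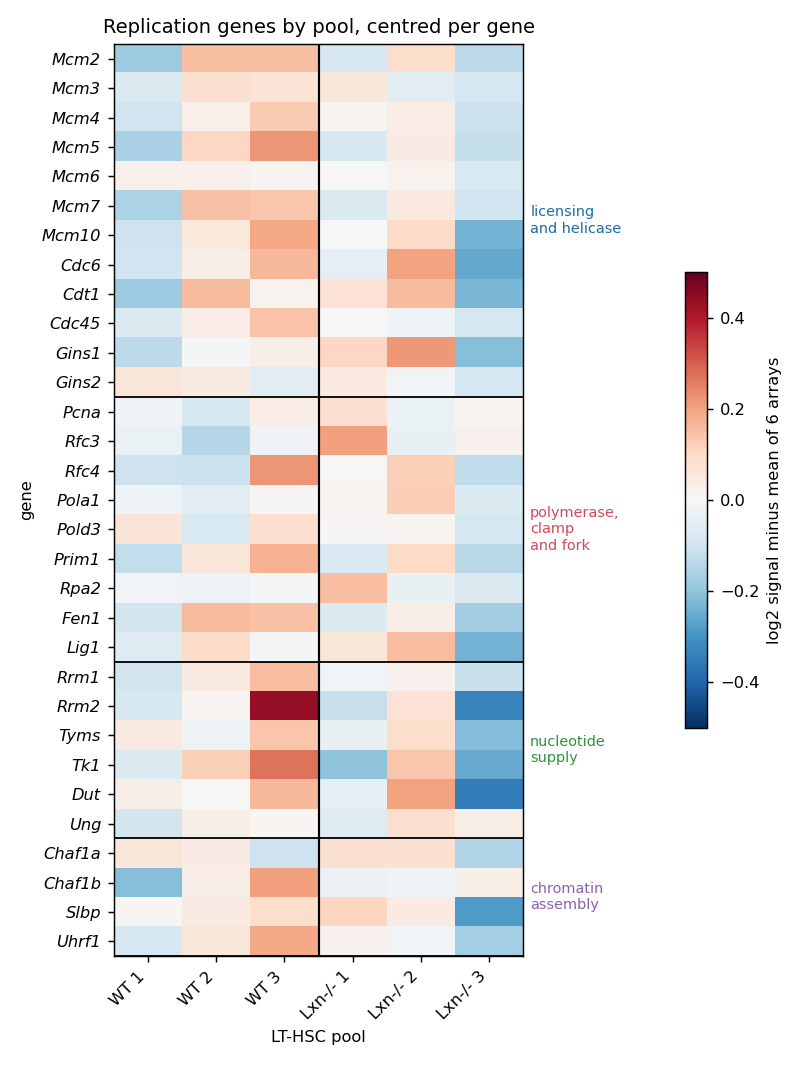
Log2 signal of the 31 genes (rows, grouped by role) in the 3 WT and 3 Lxn-/- pools (columns, numbered by replicate), each as the deviation from the gene's mean over 6 arrays. WT replicate 3 holds the highest value of 14 genes and Lxn-/- replicate 3 the lowest value of 24.

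The polymerase, clamp and fork genes were evenly split, with 5 of 9 below 0 and a median difference of -0.0057. Fen1, the flap endonuclease that trims Okazaki fragments, had 9.58, 9.83 and 9.82 in WT and 9.60, 9.70 and 9.49 in Lxn-/-. Its WT replicate 1 lay beside the Lxn-/- pools, and the difference was -0.14 (SE 0.093, 95% confidence interval -0.36 to 0.072; exact permutation p = 0.3). Lig1, the ligase that seals the trimmed fragments, differed by -0.012 (SE 0.11). Lig1 had 10.89, 11.05 and 10.95 in WT and 11.02, 11.11 and 10.72 in Lxn-/-, so its highest and lowest pools were both Lxn-/-.

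The clamp and its loader had differences of either sign. Pcna, the sliding clamp, had 13.09, 13.03 and 13.14 in WT and 13.19, 13.07 and 13.12 in Lxn-/-, a difference of 0.041 (SE 0.068) that was -0.0040 with a common median of the arrays. Its other probe set differed by 0.044 (SE 0.064). Rfc3, a subunit of the clamp loader, had 9.60, 9.49 and 9.62 in WT and 9.84, 9.60 and 9.65 in Lxn-/-. It had the highest difference of the 31 genes, 0.13 (SE 0.084, 95% confidence interval -0.066 to 0.32; exact permutation p = 0.3), and 0.055 without Lxn-/- replicate 1, which lay above the other 5 pools. Rfc4, another subunit of the same loader, had 10.76, 10.76 and 11.09 in WT and 10.87, 10.99 and 10.74 in Lxn-/-, a difference of -0.0057 (SE 0.11). Leaving out WT replicate 3, its highest pool, gave 0.10.

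Among the polymerase genes, Prim1, the catalytic primase subunit, had 9.79, 9.98 and 10.09 in WT and 9.84, 10.01 and 9.78 in Lxn-/-. It differed by -0.077 (SE 0.099; exact permutation p = 0.6), with both genotypes covering nearly the same interval. Pola1, the catalytic subunit of polymerase alpha, which forms a complex with primase, differed by 0.046 (SE 0.072). Pold3, an accessory subunit of polymerase delta, differed by -0.047 (SE 0.072). Rpa2, a subunit of the protein that coats single-stranded DNA, lay between 10.20 and 10.22 in WT and had 10.38, 10.19 and 10.15 in Lxn-/-, a difference of 0.029 (SE 0.077).

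Nucleotide supply had the lowest median of the role groups, -0.12, with 5 of 6 genes below 0, and still no gene passed the test. Rrm2, the small subunit of ribonucleotide reductase and its S phase-limited part, had 10.78, 10.87 and 11.30 in WT and 10.75, 10.94 and 10.53 in Lxn-/-. WT replicate 3 was far above the other pools and Lxn-/- replicate 3 below them, while the remaining 4 lay between 10.75 and 10.94. The difference was -0.25 (SE 0.15, 95% confidence interval -0.60 to 0.11; exact permutation p = 0.4), or 1.19-fold, and -0.088 without WT replicate 3. Rrm1, the large subunit, differed by -0.072 (SE 0.082), with 12.09, 12.23 and 12.34 in WT and 12.17, 12.20 and 12.07 in Lxn-/-.

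Tk1, the cytosolic thymidine kinase of proliferating cells, had 9.77, 9.96 and 10.11 in WT and 9.64, 9.98 and 9.59 in Lxn-/-. Lxn-/- replicate 2 lay inside the WT range and the other Lxn-/- pools below it. Its difference of -0.21 (SE 0.13, 95% confidence interval -0.50 to 0.083; exact permutation p = 0.3) had the lowest unadjusted p of the 31 genes, 0.137 in limma. Its dimmer probe set gave -0.15 (SE 0.098) with an unadjusted p of 0.175 in limma. That is above the 0.145 of Rrm2, so the rank of Tk1 depends on the probe set. Tyms, thymidylate synthase, had 10.30, 10.23 and 10.40 in WT and 10.22, 10.35 and 10.04 in Lxn-/-, a difference of -0.11 (SE 0.092; exact permutation p = 0.4).

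Dut and Ung both keep uracil out of DNA, Dut by hydrolysing dUTP and Ung by excising uracil, and with all arrays as deposited their differences had opposite signs. Both were below 0 with quantile normalization, a common median, array weights or without WT replicate 1, and both were above 0 without Lxn-/- replicate 3. Dut had 9.68, 9.65 and 9.82 in WT and 9.61, 9.85 and 9.31 in Lxn-/-, a difference of -0.13 (SE 0.13) that was 0.013 without Lxn-/- replicate 3. Ung had 8.85, 8.97 and 8.95 in WT and 8.88, 9.02 and 8.98 in Lxn-/-, a difference of 0.035 (SE 0.071). Ung was the only gene of this group in which Lxn-/- replicate 3 was not the lowest of the 6 pools.

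The chromatin assembly genes had a median difference of -0.052, with 3 of 4 below 0. Uhrf1, which reads hemimethylated DNA behind the fork and recruits the maintenance methyltransferase, had 10.36, 10.50 and 10.63 in WT and 10.46, 10.43 and 10.27 in Lxn-/-. It differed by -0.11 (SE 0.091, 95% confidence interval -0.32 to 0.10; exact permutation p = 0.4). Slbp, the protein that binds the stem-loop of histone mRNAs, had 10.41, 10.44 and 10.49 in WT and 10.51, 10.44 and 10.11 in Lxn-/-. Only Lxn-/- replicate 3 lay outside the narrow span of the other 5 pools, and the difference of -0.092 (SE 0.11) was 0.028 without it. The dimmer Slbp probe set gave -0.14 (SE 0.11).

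The CAF-1 subunits, which deposit histones at the fork, had the smallest differences of the chromatin assembly genes. Chaf1a had 10.01, 9.99 and 9.84 in WT and 10.02, 10.02 and 9.79 in Lxn-/-, with means of 9.94 in both and a difference of 0.00073 (SE 0.088, 95% confidence interval -0.20 to 0.20). Chaf1b had 10.70, 10.95 and 11.12 in WT and 10.89, 10.89 and 10.95 in Lxn-/-, a difference of -0.013 (SE 0.11). In Chaf1b the WT pools were spread over 0.42 and the Lxn-/- pools over 0.058.

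**Figure D3:**
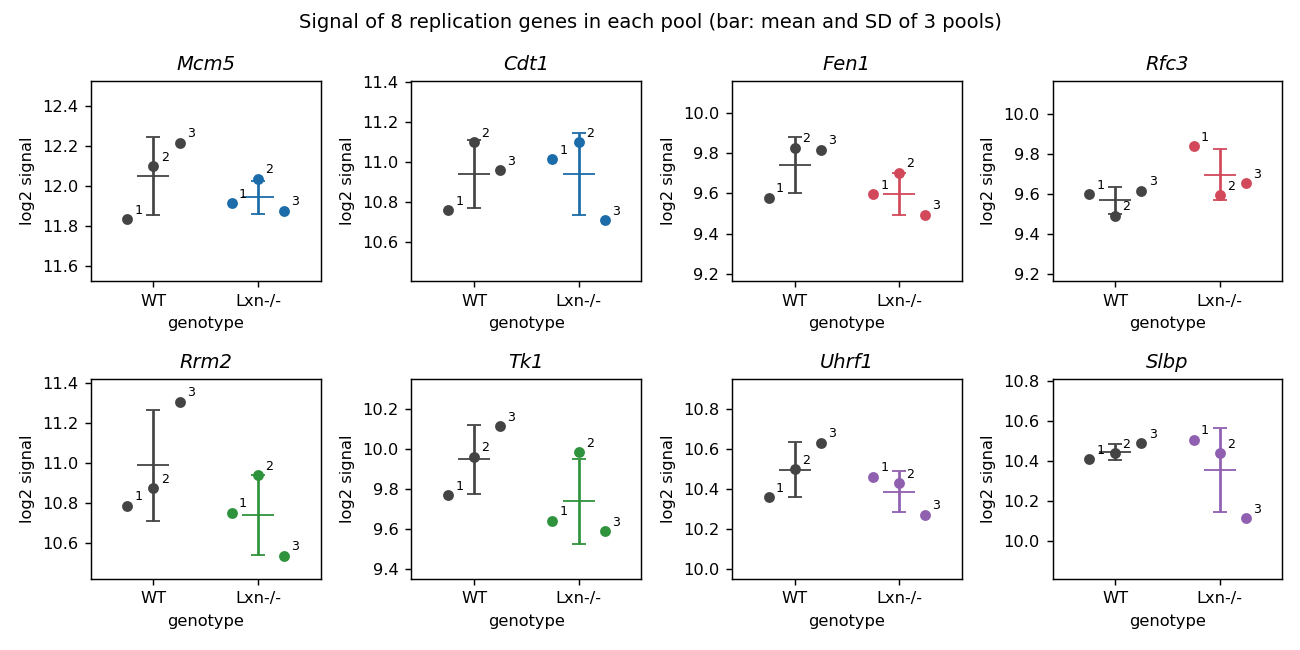
Log2 signal of Mcm5, Cdt1, Fen1, Rfc3, Rrm2, Tk1, Uhrf1 and Slbp in each pool (points, numbered by replicate), with the mean (horizontal bar) and SD (whiskers) of 3 pools per genotype, each panel spanning 1 log2 unit. The genotypes overlap in every panel, and Rrm2 shows the widest spread, with 11.30 in WT replicate 3 and 10.53 in Lxn-/- replicate 3.

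The role groups were then set beside each other within each pool, as means of the deviations of their genes from the 6-array mean. Nucleotide supply minus polymerase, clamp and fork was 0.0024, 0.048 and 0.13 in WT, against -0.12, 0.052 and -0.11 in Lxn-/-. Lxn-/- replicate 2 lay within the WT values and the other Lxn-/- pools below them, and the difference of the means was -0.12. For nucleotide supply minus licensing and helicase the difference of the means was -0.072, and for licensing and helicase minus polymerase, clamp and fork it was -0.045, both with overlapping pools. When single arrays were left out, the median of nucleotide supply stayed below 0, from -0.22 to -0.031, that of licensing ran from -0.12 to -0.007, that of chromatin assembly from -0.12 to -0.0021, and that of polymerase, clamp and fork from -0.065 to 0.056.

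**Figure D4:**
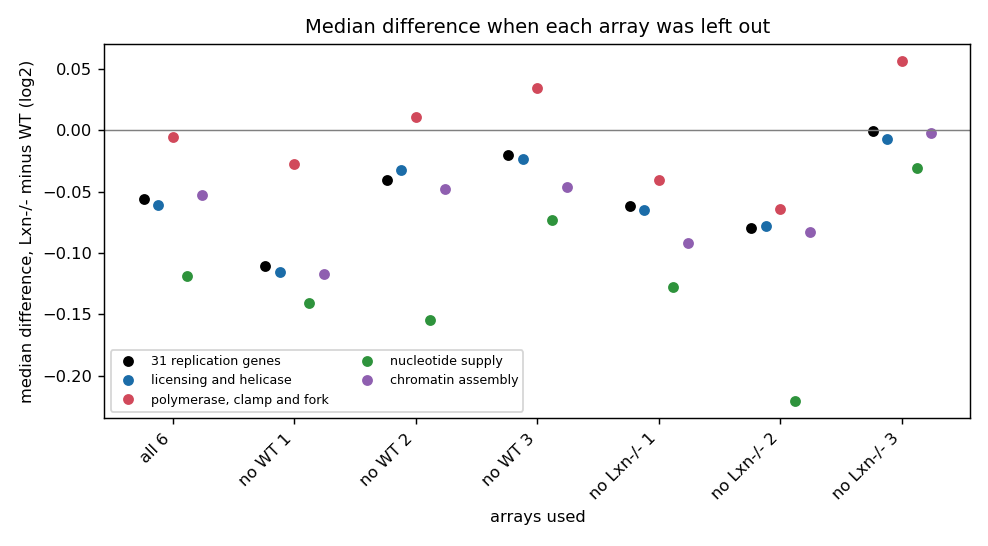
Median difference in log2 signal, Lxn-/- minus WT, of the 31 genes and of each role group (points) with all 6 arrays and with each array left out in turn. Nucleotide supply is lowest in each setting, and without Lxn-/- replicate 3 the median of the 31 genes is -0.00023.

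The larger pattern in these genes was between pools rather than between genotypes. Lxn-/- replicate 3 held the lowest of the 6 values for 24 of the 31 genes, or 77.4%, against 17.1% of all genes. WT replicate 3 held the highest value for 14 of the 31, or 45.2%, against 25.6% of all genes. Within WT, replicate 1 was lowest for 20 of the 31 genes and replicate 3 highest for 22, and within Lxn-/- replicate 2 was highest for 21. The mean deviation of the 31 genes was -0.066, 0.033 and 0.11 in the WT pools in order of their numbers, against 0.0028, 0.062 and -0.14 in the Lxn-/- pools. The mean level was 10.58 (SD 0.088, n = 3) in WT, against 10.53 (SD 0.10, n = 3) in Lxn-/-, so that each genotype's spread between pools exceeded the difference of -0.051.

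Lists of other cell cycle and cell type genes varied over the pools beside the replication genes. The 27 measured genes of mitosis had deviations of -0.051, 0.065 and 0.21 in WT, against -0.081, 0.11 and -0.25 in Lxn-/-, with a median difference of -0.15 and 26 of 27 below 0. Ube2c, which works with the anaphase-promoting complex, and the kinesin gene Kif20a had the lowest unadjusted p of that list, with differences of -0.29 (SE 0.13) and -0.27 (SE 0.14). The 12 measured erythroid markers had deviations of -0.11, 0.074 and 0.49 in WT and -0.21, 0.22 and -0.46 in Lxn-/-, and their summed linear signal ran from 28651 to 41049 in WT and from 24569 to 36804 in Lxn-/-. The 12 neutrophil markers ran the other way, with deviations of 0.83, 0.015 and -1.50 in WT and 0.30, -1.07 and 1.43 in Lxn-/-. Their summed linear signal ran from 3656 to 20315 in WT and from 5186 to 29669 in Lxn-/-, and each exceeded the receptor level on at least 1 array. The order of the 6 pools by neutrophil markers was the exact reverse of their order by the mean of the 31 genes, an observation made after the values were seen. What part these lists have in the values of the replication genes was not tested.

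**Figure D5:**
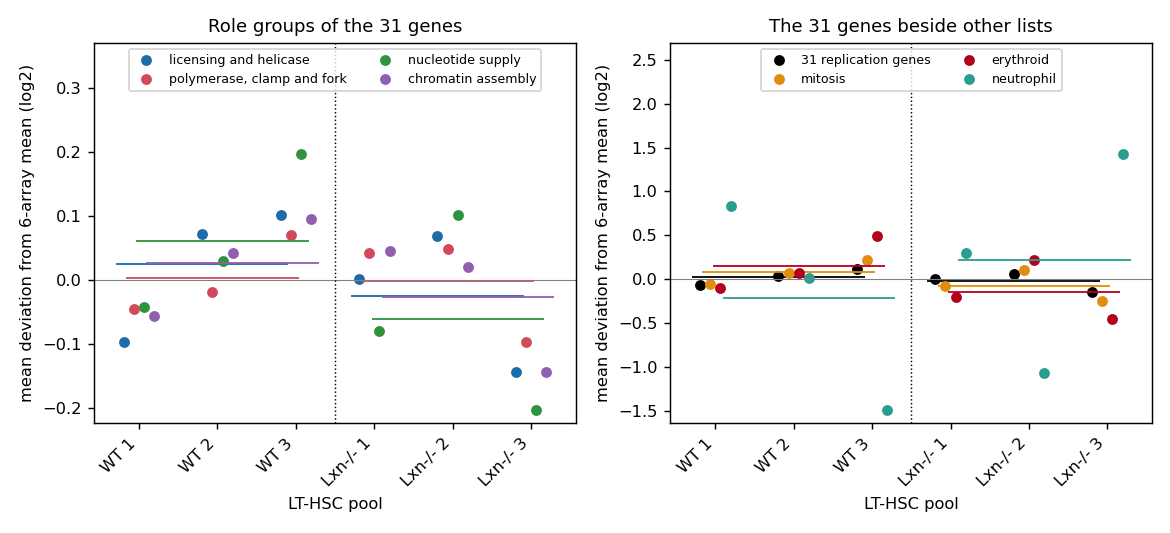
Mean deviation of log2 signal from the 6-array mean in each pool (horizontal axis, numbered by replicate; points are pools and horizontal lines means of 3 pools), on the left for the role groups and on the right for all 31 genes, mitosis genes, erythroid markers and neutrophil markers. Lxn-/- replicate 3 is lowest for all role groups, and neutrophil markers at 1.43 are highest there.

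Immediate early genes, which respond fast to outside stimuli, had deviations of 0.13, -0.14 and -0.48 in WT, against 0.11, 0.058 and 0.32 in Lxn-/-. Lxn-/- replicate 3, the pool with the lowest mean of the 31 genes, was highest and WT replicate 3, with the highest mean, was lowest. Of these genes 21 of 22 were above 0, against 8765 of all 19938 genes, with a median difference of 0.31. Of the 22, 4 were without overlap and higher in Lxn-/-, against 3.3% of all genes. Dusp2 differed by 0.38 and Ccn1 by 0.37. The summed linear signal of the 22 genes was 48979 to 73077 in WT and 70162 to 82371 in Lxn-/-. Of 14 measured B cell and plasma cell markers 13 were below 0, with a median difference of -0.38. Of the 14, 7 were without overlap and lower in Lxn-/-, against 5.49% of all genes. The summed linear signal of the 14 markers was 29436 to 39083 in WT and 25801 to 29228 in Lxn-/-. Mzb1 and Pou2af1, both of the B lineage, differed by -0.80 (SE 0.12) and -0.74 (SE 0.12). Monocyte, macrophage and dendritic cell markers were split, with 6 of 12 below 0, a median of -0.015 and a range from -0.49 for Ctss to 0.24. Cd74 in this list differed by -0.41 (SE 0.096). T and NK cell markers had a median of 0.057, with Cd3d and Gzma under the receptor level on all 6 arrays, and 0.31 (SE 0.26) for Klrb1c. Megakaryocyte markers had a median of 0.042, with 0.14 for Itga2b and -0.17 for Ppbp, and progenitor markers one of -0.03, with -0.91 for Ly6d and 0.12 for Cd48. LT-HSC markers had a median of 0.052, with 11 of 14 above 0, and -0.25 for Pdzk1ip1 and 0.13 for Meis1. None of these genes passed an adjusted p of 0.05 in limma, and their part in the values of the replication genes was not tested.

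Other genes of the same pathway likewise had no member that passed the test. Of 69 measured genes in 4 further lists, 46 (66.7%) were below 0, with a median of -0.03, and 0 of the 69 had an unadjusted p under 0.05 in limma. Other origin and helicase genes had a median of -0.018, with 12 of 21 below 0. Orc4, a subunit of the origin recognition complex, and Mcm9, an MCM relative outside the ring, differed by 0.088 (SE 0.063) and 0.087 (SE 0.07). Both were higher in all 3 Lxn-/- pools than in all WT pools. Of the 69 genes, 2 were thus without overlap and higher and 0 lower, against 3.3% and 5.49% of all genes. Other polymerase, clamp and fork genes had a median of -0.036, with 17 of 23 below 0. Dscc1, a subunit of an alternative clamp loader, differed by 0.21 (SE 0.10) and Rfc2 by -0.12 (SE 0.094). The further clamp loader genes Rfc1 and Rfc5 differed by 0.0019 (SE 0.072) and 0.028 (SE 0.068).

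Other nucleotide supply genes, of which 14 of 16 were measured, had a median of -0.037, with 11 below 0. Mthfd1, a folate enzyme that feeds purine and thymidylate synthesis, differed by -0.16 (SE 0.13), and the mitochondrial thymidine kinase gene Tk2 by 0.10 (SE 0.071), opposite in sign to the cytosolic Tk1. Other chromatin assembly genes, 11 of 12 measured, had a median of -0.022, with 6 below 0. Their histone chaperone genes Asf1b and Asf1a differed by -0.20 (SE 0.12) and -0.048 (SE 0.067). Asf1b had 10.67, 10.89 and 11.08 in WT and 10.66, 10.85 and 10.53 in Lxn-/-, so that WT replicate 3 was the highest pool and Lxn-/- replicate 3 the lowest, as in Rrm2.

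The 18 genes of E2F factors, their partners, pocket proteins and S phase cyclins had a median of -0.046, with 13 below 0. E2f6, a repressor of the family, had 10.27, 10.26 and 10.24 in WT and 10.14, 10.15 and 10.07 in Lxn-/-, without overlap. It differed by -0.13 (SE 0.062, 95% confidence interval -0.28 to 0.0076). It was the only 1 of the 18 genes without overlap, where 5.49% of all genes were without overlap and lower. E2f2, an activator, had 9.23, 8.95 and 9.34 in WT and 8.90, 9.03 and 8.90 in Lxn-/-, a difference of -0.23 (SE 0.11). Their adjusted p in limma was 0.993.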

How the data were processed

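RNA of 6 LT-HSC pools, 3 per genotype, was hybridised to Affymetrix mouse Gene ST 1.0 arrays. The deposited values are log2 signals that the authors normalized with RMA, per the series' design text, which also names limma for the authors' own testing. Partek 6.0 is listed by the submitters' processing notes, without its role. The sources used here do not state the summary level or the probe set version. Of 35557 probe sets, platform annotation paired 21789 with 1 gene symbol, 1621 with several and left 12147 unnamed here. The 23410 named probe sets were fitted in limma 3.58.1 (R 4.3.3, lmFit and eBayes without covariates, two-sided, Benjamini-Hochberg adjustment, threshold 0.05). The code of the fit was also run on simulated data. That run gives no power to detect differences as small as those of the replication genes, and none is taken from it. SE is limma's moderated standard error and SD is over 3 pools. The number of arrays limits the precision. A p-value in limma sets the genotype difference against the moderated spread between pools, and the spread between single mice was not measured. Pools were grouped by their titles, and none was left out. The genes and lists were chosen with earlier results of these data known. In full, values were given for the 3 genes of lowest p and the gene of smallest difference in each role group. Full values were also given for others chosen after their values were seen. In other lists up to 2 genes of lowest p, and for LT-HSC markers also the 4 of highest level, were named. Rfc1 and Rfc5 were named outside that rule, as further clamp loader genes. Alternatives left out each array, added a replicate block, quantile normalization, a common median, array weights, a filter on dim probe sets, the mean of all probe sets of a gene, and a trended, robust prior.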

Additional observations from a re-analysis of the deposited data

How the results depend on the processing

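In each alternative run, 0 probe sets and 0 of the 31 genes had an adjusted p under 0.05 in limma, against 914 probe sets at an unadjusted p under 0.05 with all arrays and from 385 without dim probe sets to 1807 with array weights. The median of the 31 genes ran from -0.11 to -0.00023 over single arrays left out. It was -0.056 with quantile normalization, -0.10 with a common median and -0.051 with array weights. The median of all genes moved as well, from -0.013 with the values as deposited to -0.036, -0.058 and -0.016 in that order. The median of polymerase, clamp and fork genes was -0.0057 with all arrays, 0.061 with array weights and 0.056 without Lxn-/- replicate 3. These moves were larger than that group's SD of 0.061 between WT pools and smaller than its SD of 0.082 between Lxn-/- pools. The cause was not tested.

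The replicate numbers were not taken as pairs, since the labels do not say that they pair and deviations of same-numbered pools correlated at 0.37, -0.072 and -0.081. Not every pool correlated best with its own number. With the replicate block there were 0 calls, with the same differences and a median of -0.056.

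Some signs turned. With quantile normalization Ung was at -0.0071 and Chaf1a at -0.013. With a common median Cdt1 was at -0.043, Pcna at -0.0040, Rpa2 at -0.016, Ung at -0.011 and Chaf1a at -0.044. With array weights Cdt1 was at -0.051, Rfc4 at 0.061, Pold3 at 0.013 and Ung at -0.0037. Over single arrays left out, the range was -0.098 to 0.019 for Mcm4, -0.18 to 0.045 for Cdc6, -0.087 to 0.12 for Cdt1, -0.017 to 0.20 for Gins1, -0.071 to 0.00090 for Gins2, -0.067 to 0.10 for Rfc4 and -0.0044 to 0.092 for Pola1. It was -0.040 to 0.073 for Rpa2, -0.092 to 0.10 for Lig1, -0.26 to 0.013 for Dut, -0.0028 to 0.075 for Ung, -0.051 to 0.077 for Chaf1a, -0.12 to 0.085 for Chaf1b and -0.17 to 0.028 for Slbp. Detection above background was judged only against receptor probe sets.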
